A study of Mus musculus with 4 samples.

Results

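Metalloproteases and protease inhibitors were examined in eosinophils sorted from the bone marrow and from the pleural cavity of mice injected with LLC cells, which derive from a murine Lewis lung carcinoma. A gene was a member if it was among the genes deposited for this comparison and its symbol began with Mmp, Timp, Adam, Serpin, Stfa, Wfdc or Spint, or was Cst3, Cst7, Cstb or Slpi. This rule found 36 of the 5807 listed genes. They comprised 4 matrix metalloproteases (MMPs), 8 ADAM genes, 8 ADAMTS or ADAMTS-like genes, 3 cystatins or stefins, 10 serpins, and 3 inhibitors with a WAP or a Kunitz domain. All mice were wild type (WT in the labels) and all had received LLC cells, so no group came from mice without tumor cells. The mice were 6 to 8 weeks old, and cells of both tissues were taken on day 2. The libraries WT_LLC_BM1 and WT_LLC_BM2 came from bone marrow, WT_LLC_MPE1 and WT_LLC_MPE2 from pleural lavage fluid, and each tissue thus had 2 libraries of paired reads of 100 bp. The study's results call the bone marrow cells naive, whereas its methods and the labels describe tumor-bearing mice. Whether each library held 1 mouse or a pool is not given in the sources used here.

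The values are mean reads, that is, estimated reads per gene averaged over the libraries of a tissue before deposit. Each is thus 1 mean over 2 libraries. No value per library was in the table, so no spread between replicates could be computed, no difference was tested, and every difference below is a description. Genes entered the table because the authors' own comparison of the same tissues selected them, so that a member differs between the tissues is not a finding. Mean reads were divided by the total over listed genes in each tissue, 15947438 in the pleural cavity and 11762543 in the marrow, to give RPM, reads per 1000000 listed reads. These totals cover listed genes and are not library depths, which are unknown. A log2 ratio is that of pleural cavity over bone marrow RPM, with 1 added to each. A gene is called higher or lower where this ratio passes 1 in either direction. The paper's own selection also asked for an absolute log2 fold change over 1, but its fold changes were not used here. Of the 5807 listed genes, 2058 nevertheless lay within the threshold here. Another scaling would move all ratios alike, and why so many genes lay within the threshold was not tested. A place within it belongs to the ratio used here. Folds are ratios of RPM without the added 1. Levels of different genes are compared per kilobase of the longest annotated coding transcript.

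Metalloproteases cut proteins at a catalytic zinc ion. MMPs degrade extracellular matrix and activate or inactivate chemokines. ADAM proteins sit in the cell membrane and shed the outer parts of receptors, cytokines and adhesion molecules, and ADAMTS proteases are secreted into the matrix. Serpins trap serine proteases in an irreversible complex, cystatins and stefins block cysteine cathepsins, and WAP and Kunitz domains plug the active site of serine proteases. Granulocytes carry both proteases and inhibitors, which act when the cells cross vessel walls and release their granules.

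The zinc-binding site is the part of these proteases that the catalysis rests on, so its coding sequence is shown for the MMPs and for the ADAM genes with at least 100 mean reads in a tissue. Each is 33 bases of coding exon from the GENCODE M21 transcripts of GRCm38, 5′ to 3′ on the coding strand. Capitals mark the codons of the 3 zinc-binding histidines and of the catalytic glutamate.
Mmp9: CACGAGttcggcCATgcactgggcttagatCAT
Mmp8: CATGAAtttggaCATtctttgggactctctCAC
Mmp27: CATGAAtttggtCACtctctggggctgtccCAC
Mmp16: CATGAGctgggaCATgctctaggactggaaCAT
Adam8: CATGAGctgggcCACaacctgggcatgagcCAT
Adam15: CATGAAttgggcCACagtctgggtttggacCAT
Adam17: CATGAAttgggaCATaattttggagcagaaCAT
Adam19: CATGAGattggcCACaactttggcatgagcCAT

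The Mmp9 site lies at chr2:164951133-164951165 in exon 8, and the Mmp8 and Mmp27 sites lie at chr9:7563086-7563118 in exon 5 and at chr9:7577326-7577358 in exon 4. The Mmp8 and Mmp27 sites share 27 of 33 bases, and those of Mmp8 and Mmp9 share 20. Among the ADAM genes, the site is at chr7:139987893-139987925 in exon 11 of Adam8, at chr3:89344780-89344812 in exon 11 of Adam15, at chr12:21336732-21336764 in exon 12 of Adam17 and at chr11:46125050-46125082 in exon 11 of Adam19. Adam8 and Adam19 share 29 of 33 bases. The whole site was searched as the residues HEXXHXXGXXH, with X for any residue, so a site with another residue in place of the glycine does not match. Of the 20 metalloprotease members, 14 match this whole site, among them all 4 MMPs. Adamts20 matched in the first 5 residues only, and whether it keeps the last histidine was not examined. The other 5 members, Adam7, Adam29, Adamtsl1, Adamtsl3 and Adamtsl4, matched neither the whole site nor these first residues. Of the 14 that match the whole site, 9 were lower, 1 was higher and 4 were within the threshold. Of all listed genes, 49.1% were lower and 15.5% higher. The 8 of them with at least 100 mean reads in a tissue comprised 3 lower, 1 higher and 4 within the threshold. Of all listed genes of that depth, 37.4% were lower and 18.6% higher. The 6 with fewer reads were all lower, as were 91.3% of all listed genes with so few reads.

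Across the 36 members, 5 were higher in pleural cavity eosinophils, or 13.9%, against 15.5% of all listed genes. Lower members numbered 24, or 66.7%, against 49.1% of all listed genes. The paper counts fewer of the listed genes as upregulated than the 1917 that had a log2 ratio over 0.5 here. Some genes above 0 here are thus downregulated in its comparison. Its directions for single members were not used, so small positive ratios, such as those of Mmp9, Cst3 and Adam15, may differ from it in direction. The median log2 ratio was -1.33 over the members and -0.98 over all listed genes. With genes at 0 reads set to 3 reads and no added constant, these medians were -2.60 and -1.02. Of the 17 members with under 100 mean reads in both tissues, 16 were lower, and 91.3% of all such listed genes were lower. Of the 19 members with at least 100 mean reads in a tissue, 5 were higher (26.3%), 8 lower (42.1%) and 6 within the threshold, with a median log2 ratio of 0.20 against 0.33 for all such listed genes. All listed genes of that depth were higher in 18.6% and lower in 37.4% of cases. Of the 13 members with at least 1000 mean reads in a tissue, 1 was higher (7.69%) and 6 were lower (46.2%), with a median log2 ratio of -0.67, and of all such listed genes 19.9% were higher and 21.7% lower, with a median of 0.47.

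**Figure D1:**
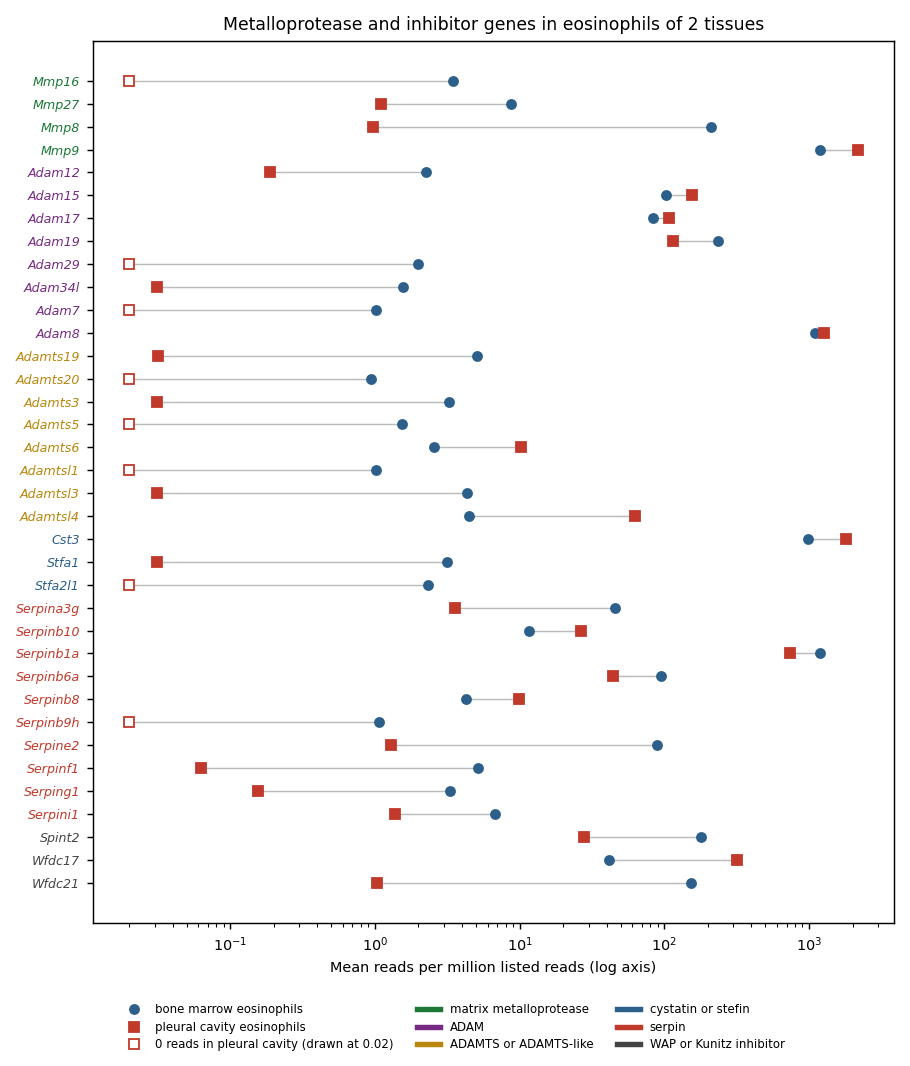
RPM of the 36 members (log axis) in bone marrow eosinophils (circles) and pleural cavity eosinophils (squares), each 1 mean over 2 libraries with no error bar, and gene labels colored by family. Mmp9, Adam8, Cst3 and Serpinb1a stand at the right in both tissues, Mmp8, Wfdc21 and Serpine2 are high in bone marrow alone, and the 8 open squares at the left edge had 0 pleural cavity reads.

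A few genes held most of the reads. Mmp9, Cst3, Adam8 and Serpinb1a together took 87.1% of the members' reads in the pleural cavity and 77.3% in the marrow. Per kilobase, Cst3 stood highest, at 2090 RPM per kilobase in the pleural cavity and 1135 in the marrow. In pleural cavity eosinophils the order below it was Mmp9 (686), Wfdc17 (599), Adam8 (408) and Serpinb1a (387). In bone marrow eosinophils it was Serpinb1a (617), Mmp9 (376), Adam8 (355) and Wfdc21 (350). Without values per library, it cannot be said which neighbors in these orders differ beyond their spread.

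The sorted cells carried eosinophil surface genes in both tissues. Siglecf had 1340 and Ccr3 4236 RPM in pleural cavity eosinophils, and 604 and 1460 in bone marrow eosinophils, while Il5ra was not listed. Genes of eosinophil granule proteins were far lower in the pleural cavity, Prg2 at 92.9 against 47218 RPM and Epx at 21.4 against 11822. Bone marrow eosinophils also carried markers of neutrophils and their precursors, 17 of 18 of them listed and each of the 17 lower in the pleural cavity. Summed, these markers made up 12.6% of listed reads in bone marrow and 0.250% in pleural cavity eosinophils, and Cebpe was the unlisted marker. Basophil and mast cell markers summed to 914 and 3.79 RPM. Of the monocyte and macrophage markers, 9 of 16 were listed, 5 higher and 3 lower, with summed levels of 9783 in the pleural cavity and 10873 RPM in the marrow. Lyz2 (7441) and Ly6c2 (1879), both lower in the pleural cavity, held most of the marrow sum. Adgre1, which encodes the F4/80 used in both sorts, held 4635 of the pleural cavity sum. The higher genes were Csf1r, Adgre1, C1qb, Marco and Cd5l, so similar sums do not mean a similar content of such cells. Fibroblast markers reached 31.1 RPM in bone marrow and 1.54 in pleural cavity eosinophils. Of 10 mesothelial markers 3 were listed, Krt18 higher at 120 against 44.0 RPM and Muc16 and Lrrn4 lower, while Msln was not listed. Of 8 lymphocyte markers 3 were listed, Ms4a1 2.52-fold higher and Cd3d and Ncr1 lower, and of 9 erythroid and platelet markers 5 were listed, Pf4 12.7-fold higher and the other 4 lower. Bone marrow cells were enriched for F4/80 and gated on CD45, SiglecF and high side scatter, and pleural cells were enriched for CD45 and gated on CD11b, F4/80, SiglecF and high side scatter. The pleural cavity gate also removed CD11c-positive and Gr1-high cells, a step that bone marrow sorting lacked, so tissue and gate cannot be told apart. The paper reports high purity and viability of the sorted eosinophils, and it checked them by Wright-Giemsa staining. In such bulk samples, fewer cells of a type and less RNA per cell cannot be told apart either.

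The 2 MMPs with the most reads lay on opposite sides of 0, under each scaling tried. Mmp9, gelatinase B, which degrades type IV collagen, had 34715 mean reads in the pleural cavity and 14050.5 in the marrow. In RPM it was 1.82-fold higher in pleural cavity eosinophils, a log2 ratio of 0.87, short of the threshold. Mmp8, neutrophil collagenase, had 15.5 mean reads in the pleural cavity and 2456 in the marrow, a 215-fold lower RPM in the pleural cavity. Mmp9 therefore exceeded Mmp8 by 4.37 times per kilobase in bone marrow and by 1711 times in pleural cavity eosinophils, a comparison within each tissue that no scaling between tissues alters. Mmp9 made up 84.4% of MMP member reads in bone marrow and 99.9% in pleural cavity eosinophils.

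Mmp8 is itself one of the neutrophil markers above. The other 16 listed markers on that list were 5.88- to 805-fold lower in the pleural cavity (median 635-fold), among them the granule gene Lcn2 at 253-fold. Their part in the Mmp8 value was not tested.

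Mmp8 and Mmp27 are neighbors on chromosome 9 of GRCm38, Mmp8 from 7558456 to 7568485 and Mmp27 from 7571396 to 7581885, 2910 bases apart on the plus strand. Mmp27, a less studied MMP, had 17.5 mean reads in the pleural cavity and 102 in the marrow, and was 7.90-fold lower. Both genes of the pair were lower, by log2 ratios of -6.73 and -2.21, and their coding sequences are 66.0% identical. Mmp9 lies apart from them, on chromosome 2 from 164940780 to 164955850. Mmp16, a membrane-bound MMP, had 0 mean reads in the pleural cavity and 41 in the marrow, and was at least 18.5-fold lower when 3 reads per library are taken as the floor. Of 23 annotated MMP genes these 4 were listed. Unlisted ones such as Mmp2, Mmp12, Mmp14 and Mmp25 have no direction here.

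The ADAM genes with high reads had log2 ratios from -1.04 to 0.59. Adam8, which is abundant in granulocytes and cleaves adhesion receptors, had 20278 mean reads in the pleural cavity and 13023 in the marrow, a 1.15-fold higher RPM in the pleural cavity. Its mean reads are fractional, as happens where RSEM divides reads between similar or overlapping transcripts. Adam17, the sheddase that releases TNF, had 1712 and 989.5 mean reads, a log2 ratio of 0.35. Adam15, which binds integrins, had 2469 and 1209, a log2 ratio of 0.59. None of the 3 passed the threshold. Scaled by the median ratio of genes with many reads, Adam8 and Adam17 turned to -0.24 and -0.09, so they have no firm direction under the scalings tried here. Adam19, a sheddase of neuregulins, had 1824 mean reads in the pleural cavity and 2777 in the marrow and was 2.06-fold lower, a log2 ratio of -1.04.

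Within a tissue, Adam8 exceeded Adam17 per kilobase by 18.9 times in bone marrow and by 17.0 times in pleural cavity eosinophils. Against Adam19 the excess was 9.60 times in bone marrow and 22.8 times in pleural cavity eosinophils. Exons of Adam8, Adam15, Adam17 and Adam19 overlap genes on the opposite strand, so their reads may hold some of those genes where strand was not kept. The ratio of Adam8 to Adam17 was nearly the same in the 2 tissues, and that of Adam8 to Adam19 was not. Adam10, the closest relative of Adam17 in function, was not listed, nor was Adam9.

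The other 4 ADAM genes reached 26.5 mean reads in the marrow and 3 in the pleural cavity. Adam12, a sheddase of growth factors, had 3 and 26.5 and was 12.0-fold lower (95% exact interval 5.15 to 34.1, counting error only). Adam7 and Adam29, which lack the zinc site and are known from the male reproductive tract, had 0 reads in pleural cavity eosinophils and 12 and 23.5 in bone marrow eosinophils. At the floor of 3 reads they were at least 5.42-fold and at least 10.6-fold lower. Adam34l, annotated as Gm5346 in GENCODE M21, had 0.5 and 18.5 mean reads.

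**Figure D2:**
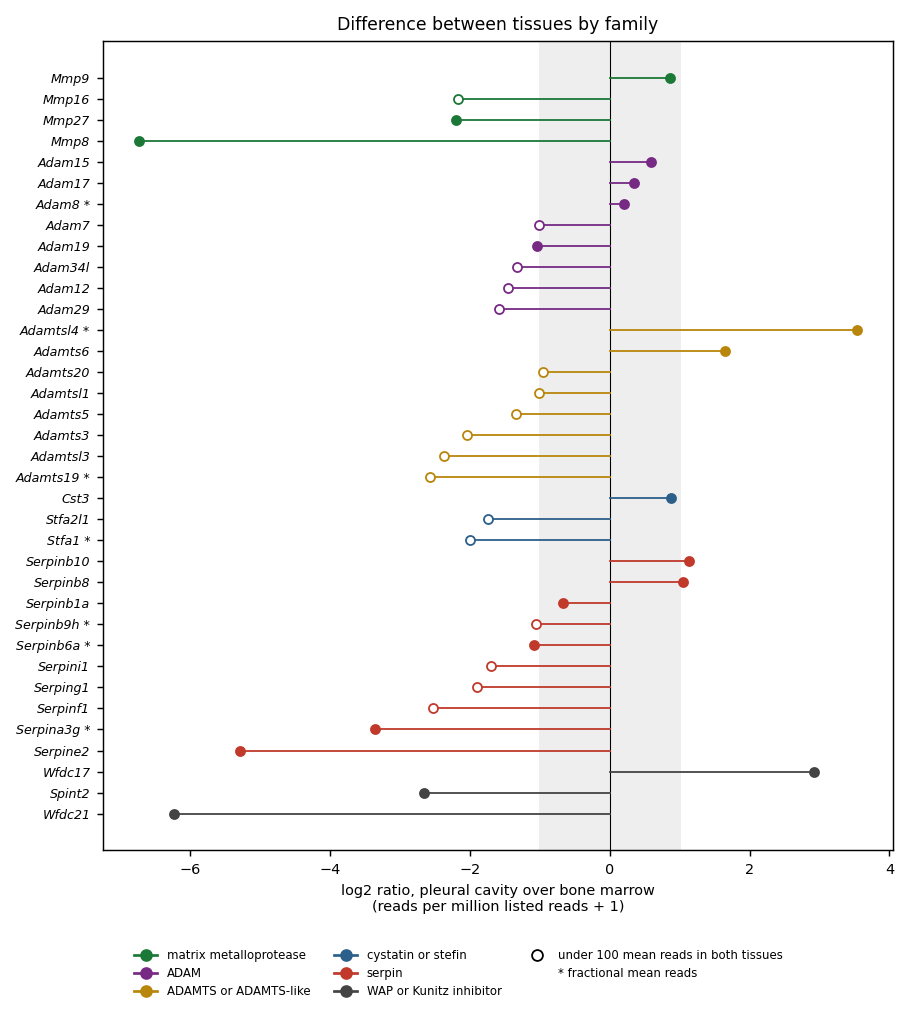
Log2 ratio of RPM, with 1 added, of pleural cavity over bone marrow eosinophils for the 36 members, grouped by family and sorted within it. The gray band spans -1 to 1, open circles had under 100 mean reads in both tissues, and asterisks mark fractional mean reads. All open circles lie to the left of 0, while filled circles lie on both sides, from Mmp8 at -6.73 to Adamtsl4 at 3.53.

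Adamtsl4 stood out among the secreted ADAMTS family. This ADAMTS-like protein has no protease domain and is known for binding fibrillin microfibrils. It lies on chromosome 3 from 95676201 to 95687917 and had 994.02 mean reads in the pleural cavity and 52.555 in the marrow. The gene was 14.0-fold higher in pleural cavity eosinophils, the highest log2 ratio of the members at 3.53, and its mean reads are fractional. Adamts6, a protease of the same family, had 162 and 30 mean reads and was 3.98-fold higher. Both stayed above the threshold under each scaling and added constant tried.

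The 6 remaining ADAMTS and ADAMTS-like genes were on the other side of 0 and low in reads. Adamts19 had 0.505 mean reads in the pleural cavity and 60.02 in the marrow, both fractional, a 161-fold difference whose 95% exact interval for counting error runs from 28.6 to 6479. Adamtsl3 had 0.5 and 51 mean reads, and Adamts3, which processes procollagen and VEGF-C, had 0.5 and 38. Adamts5, an aggrecan-degrading protease, had 0 and 18 and was at least 8.13-fold lower at the floor of 3 reads. Adamtsl1 had 0 and 12, and Adamts20 had 0 and 11, which at the floor is at least 4.97-fold lower and by its log2 ratio of -0.95 was not called.

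Among cysteine protease inhibitors, Cst3 was abundant in both tissues. Cystatin C, its product, is a secreted inhibitor of cathepsins. Cst3 lies on chromosome 2 from 148871722 to 148875692 and had 28666 mean reads in the pleural cavity and 11482.5 in the marrow, a log2 ratio of 0.88 that did not pass the threshold. Cst3 and Mmp9 kept nearly the same proportion, Cst3 exceeding Mmp9 per kilobase by 3.02 times in bone marrow and by 3.05 times in pleural cavity eosinophils. Against Serpinb1a the excess of Cst3 was 1.84 times in bone marrow and 5.39 times in pleural cavity eosinophils.

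The stefins, intracellular inhibitors of cathepsins encoded by a cluster on chromosome 16, had few reads. Stfa1 had 0.5 mean reads in the pleural cavity and 36.875 in the marrow, and Stfa2l1 had 0 and 27.5, at least 12.4-fold lower at the floor of 3 reads. The genes lie 115 kilobases apart and their coding sequences are 77.7% identical. The Stfa1 reads are fractional, so its value is uncertain where reads could be split between stefins. Stfa2, Stfa3, Cstb and Cst7 were not listed.

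Serpins differed in both direction and size. Serpinb1a, an intracellular inhibitor of neutrophil elastase, cathepsin G and proteinase 3, was the serpin member with the most reads, 11852.5 in the pleural cavity and 13927.5 in the marrow, a log2 ratio of -0.67. Serpine2, protease nexin-1, which inhibits thrombin and urokinase, had 20.5 mean reads in the pleural cavity and 1040 in the marrow and was 68.8-fold lower. Serpina3g, a mouse relative of antichymotrypsin, had 56.815 and 537.955 mean reads and was 12.8-fold lower, with fractional reads from a family of similar genes. Serpinb6a, an inhibitor of cathepsin G, had 707.495 and 1117.86, a log2 ratio of -1.08, also with fractional reads. Its exons overlap those of Nqo2 and Ripk1 on the opposite strand, and whether the counting used strand is not given in the sources used here.

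The 2 higher serpins are neighbors. Serpinb10 lies on chromosome 1 from 107529003 to 107549271 and Serpinb8 from 107590006 to 107610484, both on the plus strand and 40734 bases apart. Serpinb10, known from hematopoietic cells, had 425.5 mean reads in the pleural cavity and 136 in the marrow and was 2.31-fold higher. GENCODE M21 annotates it as a polymorphic pseudogene, and its exons overlap those of Serpinb2 on the same strand, so its value is uncertain. Serpinb8, an inhibitor of furin-like proteases, had 158.5 and 50.5 and was also 2.31-fold higher. Their log2 ratios of 1.14 and 1.05 lay between 0.66 and 0.99 in 4 of the alternative settings. On chromosome 13, the other Serpinb members, Serpinb1a, Serpinb6a and Serpinb9h, had log2 ratios below 0, from -1.08 to -0.67. Serpinb9h, annotated as Gm11397, had 0 mean reads in the pleural cavity and 12.63 in the marrow.

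The remaining serpins had under 100 mean reads in both tissues. Serpinf1, the antiangiogenic factor PEDF, had 1 mean read in the pleural cavity and 60.5 in the marrow, 82.0-fold fewer with a 95% exact interval of 22.2 to 685 for counting error. Serping1, the inhibitor of complement C1, had 2.5 and 39, and Serpini1, neuroserpin, had 22 and 79. Serpinf1, Serping1 and Serpine2 are also expressed by stromal cells, which lack the CD45 used in both sorts. The 4 listed fibroblast markers of 7 were all lower in pleural cavity eosinophils, beside 49.1% of all listed genes. Dcn had 172.5 mean reads in bone marrow and 3.5 in pleural cavity eosinophils. Col1a1, Col1a2 and Col3a1 had under 100 mean reads in both tissues, where 91.3% of all listed genes were lower. The part of stromal cells in these values was not tested.

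The pair Wfdc17 and Wfdc21 showed the widest contrast of neighboring genes. Both encode small secreted WAP domain proteins and lie on chromosome 11, Wfdc17 from 83703991 to 83706268 and Wfdc21 from 83746940 to 83752642, 40671 bases apart with Wfdc18 between them. Wfdc17, known from activated macrophages, had 5087.5 mean reads in the pleural cavity and 484 in the marrow and was 7.75-fold higher. Wfdc21, known from the neutrophil lineage, had 16.5 and 1786.5 and was 147-fold lower, beside the neutrophil markers given above, whose part in it was not tested. Per kilobase, Wfdc21 exceeded Wfdc17 by 4.53 times in bone marrow eosinophils, and Wfdc17 exceeded Wfdc21 by 251 times in pleural cavity eosinophils. Their coding sequences are 61.3% identical over the aligned bases, and neither gene had fractional reads. Wfdc18 was not listed.

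Spint2, a membrane-bound Kunitz inhibitor of matriptase and hepsin, had 443 mean reads in the pleural cavity and 2116 in the marrow and was 6.48-fold lower. It made up 48.2% of the reads of the 3 WAP and Kunitz members in bone marrow eosinophils and 7.99% in pleural cavity eosinophils, where Wfdc17 took 91.7%. Some markers of other cells were higher beside Wfdc17. The macrophage markers Marco and C1qb were 8.24-fold and 3.42-fold higher in pleural cavity eosinophils, but Mrc1 was 2.41-fold lower and Cd68 was not listed. The part of such cells in the Wfdc17 value was not tested.

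**Figure D3:**
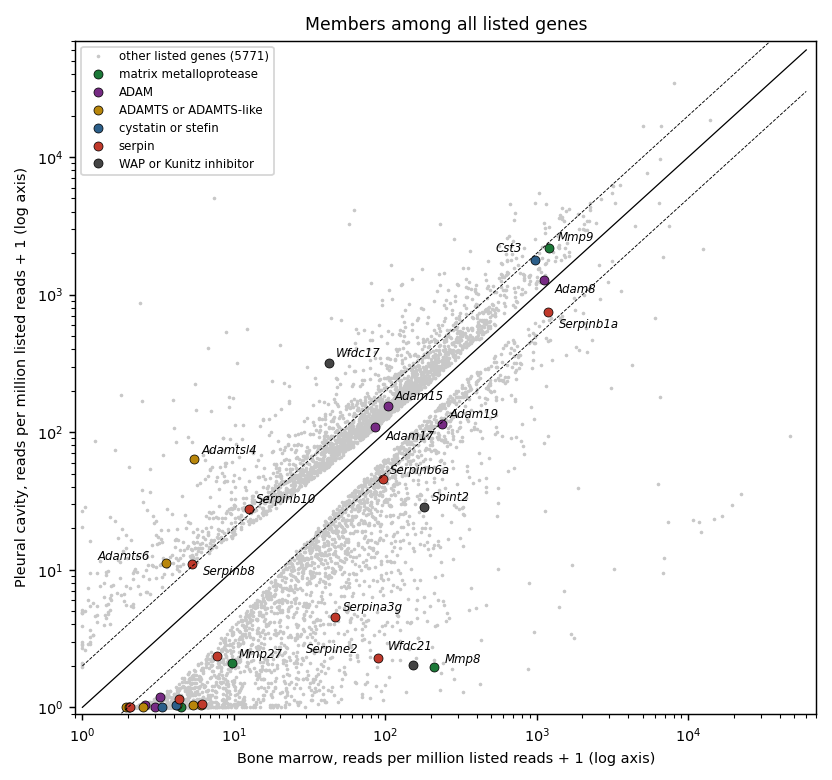
RPM, with 1 added, in bone marrow (x axis) and pleural cavity eosinophils (y axis), both log axes, for the members (colored by family) and the other listed genes (gray). The solid line marks equal values and the dashed lines a 2-fold difference. Wfdc17 and Adamtsl4 lie well above the lines, Mmp8, Wfdc21 and Serpine2 far below, and Mmp9, Cst3 and Adam8 between them at the upper right.

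Promoters are shown for the 2 members with the highest and the 2 with the lowest log2 ratios among those with at least 100 mean reads in a tissue and a promoter in the RefSeq table, which held 25 of the 36 members. Each is the 250 bases before the RefSeq start in GRCm38.p6, on the strand of the gene. The motifs searched on either strand were TGANTCA for AP-1, TTGCNNAA for C/EBP proteins, AGATAA for GATA factors, TATAAA for the TATA box, and GGG followed after 5 bases of any kind by CC for NF-kB. Capitals mark their matches.
Adamtsl4: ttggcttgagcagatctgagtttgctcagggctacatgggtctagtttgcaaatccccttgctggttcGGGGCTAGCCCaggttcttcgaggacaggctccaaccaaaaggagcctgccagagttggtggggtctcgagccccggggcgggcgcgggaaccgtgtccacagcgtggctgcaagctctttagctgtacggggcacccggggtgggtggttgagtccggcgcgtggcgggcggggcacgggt
Wfdc17: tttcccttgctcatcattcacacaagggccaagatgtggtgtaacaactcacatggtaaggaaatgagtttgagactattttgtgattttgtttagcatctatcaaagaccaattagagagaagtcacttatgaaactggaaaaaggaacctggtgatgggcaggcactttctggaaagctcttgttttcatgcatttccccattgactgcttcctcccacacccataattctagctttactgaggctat
Serpine2: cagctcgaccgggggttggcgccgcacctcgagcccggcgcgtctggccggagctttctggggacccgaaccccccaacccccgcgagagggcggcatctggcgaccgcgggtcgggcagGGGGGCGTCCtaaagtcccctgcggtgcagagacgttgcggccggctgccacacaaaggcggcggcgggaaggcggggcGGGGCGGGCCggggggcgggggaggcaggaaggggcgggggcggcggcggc
Mmp8: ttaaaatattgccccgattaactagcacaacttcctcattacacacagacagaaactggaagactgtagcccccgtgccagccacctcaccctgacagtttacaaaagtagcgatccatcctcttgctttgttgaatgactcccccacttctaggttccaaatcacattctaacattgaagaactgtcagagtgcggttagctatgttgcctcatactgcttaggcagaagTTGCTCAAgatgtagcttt

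These windows are chr3:95687918-95688167 on the minus strand for Adamtsl4, chr11:83703806-83704055 on the plus strand for Wfdc17, chr1:79858666-79858915 on the minus strand for Serpine2 and chr9:7558179-7558428 on the plus strand for Mmp8. The RefSeq start equals the GENCODE gene start for Adamtsl4, lies 27 bases before it for Mmp8, and lies 65 bases into the gene for Wfdc17 and 2515 bases into it for Serpine2, whose window is thus inside the GENCODE gene. The Mmp8 window held 1 match, to C/EBP, beginning 19 bases before the RefSeq start, a motif found in 9.55% of the 27025 promoters of the table. Adamtsl4 held 3 overlapping matches to NF-kB and Serpine2 held 2, but this loose motif occurs in 45.4% of all promoters. Wfdc17 held no match to any of the 5 motifs. The GC content was 64.4% for Adamtsl4 and 41.2% for Wfdc17, the higher members, and 78.8% for Serpine2 and 44.8% for Mmp8, the lower ones. The windows thus differed within each pair, and the values of the pairs overlapped. Of the 25 members with a promoter, 6 held the C/EBP motif, 13 the NF-kB motif, 4 GATA, 3 AP-1 and 1 the TATA box, where 6.87% of all promoters hold AP-1, 10.3% GATA and 13.0% TATAAA. A match is a stretch of letters and not a site shown to be bound.

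The proteases that these inhibitors act on were examined from a list of 18 serine proteases, of which 7 were listed, 6 lower and none higher. Over all listed genes, 49.1% were lower and 15.5% higher, which is also the background of the lists that follow. Elane, neutrophil elastase, had 135.5 mean reads in the pleural cavity and 80228.5 in the marrow and was 803-fold lower. Ctsg, cathepsin G, was 700-fold and Prtn3, proteinase 3, was 174-fold lower. These 3 are targets of Serpinb1a, whose RPM differed by 1.59-fold, and they are also on the neutrophil marker list. Mcpt8, 658-fold lower, is also on the basophil and mast cell marker list. St14, matriptase, a target of Spint2, had 48 and 483 mean reads and was 13.6-fold lower. Hpn, hepsin, was the exception, with a log2 ratio of 0.93. Plau, Plat and F2 were not listed.

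Of 10 cysteine proteases that cystatins block, cathepsins and legumain, 3 were listed. Ctsb, the most abundant, had 16698 and 9819 mean reads, a log2 ratio of 0.33 beside 0.88 for Cst3. Ctsz had 0.24, and Ctsf, with 4.5 and 78.5 mean reads, was lower at -2.58. Unlisted cathepsins included Ctsl and Ctss.

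Regulators of metalloproteases were listed for 9 of 21 genes, 3 higher, 3 lower and 3 within the threshold. Furin, which removes the prodomain of many ADAM and membrane-type MMP proteins, had 4456.3 mean reads in the pleural cavity and 732.5 in the marrow and was 4.49-fold higher. Plaur, the urokinase receptor, was 2.55-fold and Tspan17, a tetraspanin that binds Adam10, was 2.07-fold higher. Reck, a membrane-anchored MMP inhibitor, had 321 and 497.5 mean reads and was 2.10-fold lower. The tetraspanin Cd63, which binds Timp1, had 9023.5 and 24740.5 mean reads and was 3.72-fold lower, and Ace, itself a zinc peptidase, had 6 and 87.5 and was 19.8-fold lower. Frmd8, a partner of the Adam17 cofactor iRhom, and the tetraspanin Tspan14 had log2 ratios of 0.83 and 0.62. None of the 4 Timp genes, which encode the main tissue inhibitors of MMPs, was listed, so no balance of Mmp9 against them can be given.

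Surface proteins shed by Adam10 or Adam17 were listed for 15 of 26 genes, 5 higher, 6 lower and 4 within the threshold. Csf1 was 6.73-fold, Icam1 3.92-fold, Csf1r 3.83-fold, Cd44 2.67-fold and Notch2 2.20-fold higher in pleural cavity eosinophils. Tnf, which gave Adam17 its first name, had 183.5 and 547.5 mean reads and was 4.05-fold lower. Vcam1 was 207-fold and Il1r2 22.4-fold lower. Transcript levels say nothing of how much of a protein is shed.

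**Figure D4:**
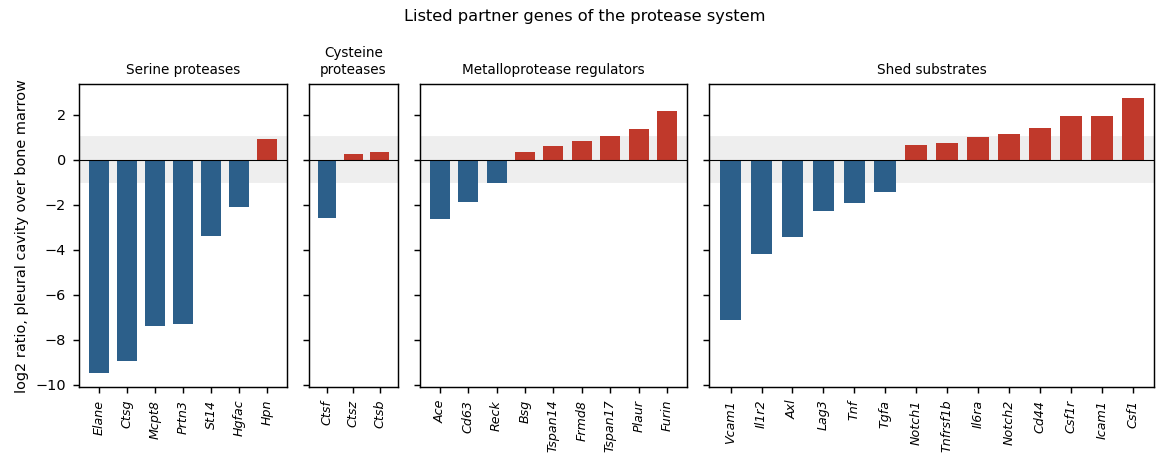
Log2 ratio of RPM, with 1 added, of pleural cavity over bone marrow eosinophils for the listed genes of 4 partner lists, with 1 gene left out. Bars start at 0, red bars are above and blue bars below it, and the gray band spans -1 to 1. The serine proteases Elane, Ctsg, Mcpt8 and Prtn3 lie lowest, from -9.49 to -7.30, while Csf1 at 2.73 and Furin at 2.15 lie highest.

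The members nearest to the threshold were Adam7 and Adamtsl1 at -1.01, Adam19 at -1.04 and Serpinb8 at 1.05 outside it, and Adamts20 at -0.95, Cst3 at 0.88 and Mmp9 at 0.87 inside it. Unscaled mean reads placed Mmp9 at 1.30, Cst3 at 1.32 and Adam15 at 1.02, past the threshold, and Adam19 at -0.60 and Serpinb6a at -0.65 within it. Scaling by the median ratio of genes with many reads placed Serpinb1a at -1.11, past the threshold.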

How the data were processed

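Eosinophils of 2 tissues, with 2 libraries each, were sequenced by the authors. The reads were trimmed with SOAPnuke, aligned with HISAT2 to GRCm38 (GENCODE vM25), mapped to genes with Bowtie2 and quantified with RSEM. For each tissue, the authors deposited the mean of the libraries' expected counts, not scaled for depth. The table also holds the authors' fold changes, p-values and q-values of the same comparison, which were not used. The number of unused columns of values per library was 0, so the planned edgeR test could not be run, and depth, intervals over replicates and p-values are lacking.

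Mean reads were scaled to 1000000 listed reads (RPM), 1 was added, and log2 ratios past 1 were called. Means at 0 were set to a floor of 3 reads per library for bounds, and intervals are exact 95% intervals from reads summed over libraries, for counting error only. Means further than 0.001 from a multiple of 0.5 were taken as fractional. Gene coordinates, lengths and coding sequences came from GENCODE M21 on the same assembly, an earlier release than that of the authors, with lengths for all 36 members, and promoters from RefSeq. The ratio code was tested on simulated data. Members with at least 100 mean reads in a tissue are described in full and the others more briefly. The members and gene lists were chosen with earlier results of these data known, and the ratios between 2 members were chosen after their values were seen. Alternatives covered scaling, the added constant, the threshold, low reads and fractional genes. Scripts ran under Python 3.11.15 with numpy 2.4.6, pandas 2.3.3, matplotlib 3.10.9 and scipy 1.17.1. The values of 1 gene on the list of shed proteins are not reported here, although its counts include it.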

Additional observations from a re-analysis of the deposited data

How the results depend on the processing

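No paired analysis was possible because the table holds means per tissue and no value per library, and for the same reason leaving out each library and the planned edgeR test were not run. Of 114 values of single members with at least 100 mean reads in a tissue under another scaling or added constant, 100 kept their side of the threshold, 14 crossed it and none of those called changed sign. Without scaling, which shifts all log2 ratios by 0.44 and the median of all listed genes by 0.40, 8 members and 1742 listed genes were higher (19 members and 2291 listed genes lower), with a member median of -1.20. Scaling by the median ratio of genes with many reads, a shift of -0.44 (-0.30 in the median), gave 3 and 499 higher, with a median of -1.50. Leaving the 10 largest genes or, chosen after seeing the data, the neutrophil markers out of the totals left 3 members higher each (714 and 686 listed genes), with medians of -1.56 and -1.45. Higher genes were thus 17.2% of called members and 24.0% of called listed genes as reported, against 29.6% and 43.2% without scaling and 10.3% and 13.1% with the median ratio. An added constant of 0.1 moved the median to -3.43, with 69.4% of members and 50.5% of listed genes lower. One of 5 moved it to -0.52 with 3 members higher, 10 lower and 1643 listed genes lower. Lower genes were then 27.8% of members and 28.3% of listed genes, against 66.7% and 49.1% as reported. The larger share of lower members was thus absent with the constant of 5. With a threshold of 2, 2 members were higher and 12 lower (244 and 1175 listed genes). With 0.5, 8 members and 1917 listed genes were higher, and 26 members (72.2%) and 3337 listed genes (57.5%) lower. Among the 17 members with at least 100 mean reads over both tissues, the median turned to 0.20, with 7 lower members and 1481 lower listed genes, since this setting leaves out genes with few reads. Without fractional genes the median was -1.34. Depth per library is unknown, so for members at 0.5 to 3 mean reads the size of a fold is imprecise.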
